A study of Mus musculus with 15 samples.

Results

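Skin that had healed over a 10 mm wound filled with cell-free beads was compared with unwounded skin across all genes, to find which tissues and pathways had not returned to the level of normal skin. The comparison took 6 of the 15 sequenced samples, namely every sample labelled acellular at 10 mm (3) and every sample labelled normal (3). All animals were male balb/c mice, 4 to 6 weeks old at surgery by the study's methods and wild type by the labels. Balb/c is an albino laboratory strain. In the acellular 10 mm group a rounded full-thickness piece of skin was cut out along the dorsal midline and replaced by printed beads of Matrigel, a basement membrane extract, that held no cells. The normal group had no wound, and neither group received mesenchymal stem cells. The methods name 4 weeks of implantation for sequenced skin but close the wound study on day 21, and the labels do not settle which applies here. Nothing in the labels says whether the 3 samples of a group came from 3 animals, so the p-values measure the spread between these samples. The body site from which the normal skin was cut is not given beyond the tissue.

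Skin is built of an outer epidermis with hair follicles and sebaceous glands that grow down from it, a collagen-rich dermis with vessels, nerves and resident immune cells, a layer of dermal fat, and in the mouse a thin sheet of skeletal muscle, the panniculus carnosus. A full-thickness wound removes all of these. It closes by inward movement of keratinocytes over a provisional matrix that fibroblasts, macrophages and new capillaries rebuild into scar. Follicles, fat and muscle are known to return slowly or incompletely. The hair follicle itself cycles through growth, regression and rest, and a growing follicle makes a hair shaft wrapped in an inner root sheath.

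Estimated read counts were deposited for 18929 genes. They summed to between 17064008 and 17597931 per sample in the acellular 10 mm group and between 15840551 and 16508803 in normal skin. Levels are given as CPM, counts scaled to library size after TMM normalization, per sample in the order of replicates 1, 2 and 3, and they are not divided by gene length. Fold changes are healed minus normal skin on the log2 scale, ± SE, from the quasi-likelihood test of edgeR, with p-values adjusted by Benjamini and Hochberg's method over the 15369 genes tested, and a gene was called at an adjusted p below 0.05. Correlations of log2 CPM were 0.983 to 0.989 between normal samples and 0.951 to 0.965 between healed samples. In bulk tissue, fewer cells of a type and less RNA per cell cannot be told apart.

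All 6 samples held the keratin and collagen transcripts that define skin, with Krt14 at 5811, 4175 and 3787 CPM in healed skin and 1982, 1469.6 and 1325 CPM in normal skin. Some samples stood apart before any comparison. The summed neutrophil list was 15.4, 126 and 24.1 CPM in healed skin and 28.6, 31.3 and 30.0 CPM in normal skin, so healed replicate 2 was above every other sample. The summed inner root sheath list was 1612, 171 and 552 CPM in healed skin and 136, 107 and 111 CPM in normal skin, with healed replicate 1 highest and replicate 2 nearest to normal. For the clock genes Per3, Dbp, Tef and Nr1d2, healed replicate 1 lay near normal skin and replicates 2 and 3 far from it. Normal replicate 1 was the lowest normal sample for most fat, macrophage and complement genes.

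Of 15369 genes, 3125 were called (20.3%). They comprised 1501 genes that were higher in healed skin (9.77% of those tested) and 1624 that were lower (10.6%), and these shares are the background for every list count of that fit below. The median log2 fold change over all genes was 0.028. The 3 healed samples lay wholly above the 3 normal samples for 29.1% of genes and wholly below for 27.2%, or 56.3% in either direction. Counts below are from the edgeR fit of all 5 groups unless another is named. DESeq2 called 5058 genes (14.6% higher and 18.3% lower) and an edgeR fit of only the 6 samples 6196 (20.2% higher and 21.8% lower), so list counts from these fits have larger backgrounds. The number of calls depended on each sample. It was 800, 1853 and 1842 without acellular replicates 1, 2 and 3, and 1813, 1095 and 902 without normal replicates 1, 2 and 3. No gene called with all samples changed direction in any of these fits. In the text, "held" means that a gene was called in all 6 fits that left out 1 sample.

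**Figure D1:**
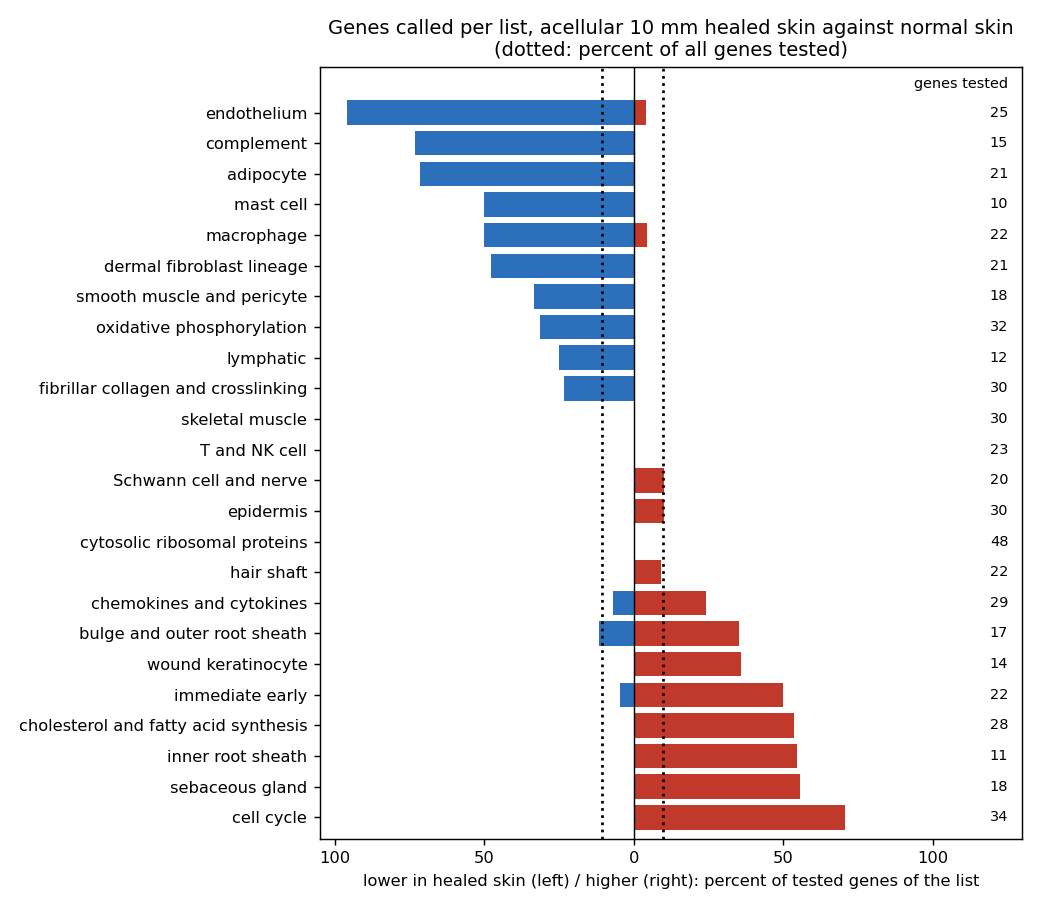
Percent of the tested genes of each list that were called lower (blue, left) or higher (red, right) in acellular 10 mm healed skin than in normal skin, with the number tested at the right edge and the percentages over all genes as dotted lines. Endothelial, complement and adipocyte genes lie far to the left, cell cycle, sebaceous and inner root sheath genes far to the right, and skeletal muscle genes have no bar.

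Blood vessel genes were reduced almost throughout. Of 25 endothelial genes tested, 24 were lower in healed skin and 1 was higher, with a median log2 fold change of -1.80. Pecam1, the adhesion molecule CD31 of endothelial junctions (chromosome 11, 106654213 to 106715281 on GRCm38.p6), was at 40.2, 70.8 and 30.2 CPM in healed skin and 181, 189 and 198 CPM in normal skin. The normal samples lay close together and every healed sample was far below them. Its log2 fold change was -2.01 ± 0.40 with an adjusted p of 0.0091, and it held. Cdh5, the VE-cadherin of the same junctions, was at 17.1, 25.3 and 19.3 CPM in healed skin and 105, 109.6 and 108 CPM in normal skin (log2 fold change -2.39 ± 0.39, adjusted p = 0.0054). Ptprb, the endothelial receptor phosphatase, was at 19.5, 27.2 and 18.1 CPM in healed skin and 161, 160.0 and 173 CPM in normal skin (log2 fold change -2.93 ± 0.47, adjusted p = 0.0053). Kdr and Flt1, the receptors for VEGF, fell by similar amounts (Kdr -2.39 ± 0.47, Flt1 -2.41 ± 0.41), as did Erg, an endothelial transcription factor (Erg -2.47 ± 0.43), and Vwf, the clotting factor stored by endothelium (Vwf -2.73 ± 0.53). All of these held. Plvap, a protein of fenestrated capillaries, was at 27.1, 51.6 and 9.88 CPM in healed skin and 89.6, 114 and 117 CPM in normal skin, and here healed replicate 3 was far below replicate 2 (log2 fold change -1.85 ± 0.48, adjusted p = 0.022). Plvap was not called without acellular replicate 1 (adjusted p = 0.085) or normal replicate 2 (adjusted p = 0.06) or normal replicate 3 (adjusted p = 0.069). The exception was Sox7, a transcription factor also present outside vessels, at 44.3, 41.7 and 35.4 CPM in healed skin and 13.1, 16.6 and 16.3 CPM in normal skin (log2 fold change 1.40 ± 0.23, adjusted p = 0.0054), with no overlap between groups. The number of endothelial genes lower was 14, 20 and 19 without acellular replicates 1, 2 and 3, and 21, 17 and 16 without normal replicates 1, 2 and 3.

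Genes of cells that accompany vessels were lower in part. Of 18 smooth muscle and pericyte genes, 6 were lower and none higher. Rgs5, a pericyte regulator of G protein signalling, was at 36.1, 53.9 and 96.5 CPM in healed skin and 419, 328 and 347 CPM in normal skin (log2 fold change -2.55 ± 0.52, adjusted p = 0.0099). Kcnj8, a pericyte potassium channel, was at 5.54, 9.15 and 9.47 CPM in healed skin and 26.3, 35.0 and 32.5 CPM in normal skin (log2 fold change -1.96 ± 0.40, adjusted p = 0.0098). The contractile genes Acta2 and Myh11 were not called (Acta2 -0.44 ± 0.26, Myh11 -0.93 ± 0.38), and Acta2, at 195, 177 and 102 CPM in healed skin and 208, 165 and 271 CPM in normal skin, overlapped between groups. Of 12 lymphatic genes, 3 were lower. Lyve1, a hyaluronan receptor that lymphatics share with resident macrophages, was at 1.77, 4.27 and 2.05 CPM in healed skin and 14.5, 59.4 and 32.0 CPM in normal skin (log2 fold change -3.71 ± 0.58, adjusted p = 0.0052). Flt4, the receptor for VEGF-C, was at 3.60, 4.66 and 2.10 CPM in healed skin and 9.98, 11.7 and 12.9 CPM in normal skin (log2 fold change -1.74 ± 0.39, adjusted p = 0.013). Flt4 was not called without acellular replicate 1 (adjusted p = 0.052) or normal replicate 3 (adjusted p = 0.051). Prox1, the transcription factor that defines lymphatic endothelium, was at 1.66, 2.58 and 2.05 CPM in healed skin and 5.48, 5.96 and 8.85 CPM in normal skin and did not pass the test (log2 fold change -1.69 ± 0.57, adjusted p = 0.053), and Gja4, the third gene called, is also an arterial connexin. The number of smooth muscle and pericyte genes lower was 2, 3 and 2 without acellular replicates 1, 2 and 3, and 2, 3 and 2 without normal replicates 1, 2 and 3.

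Most fat genes were lower in healed skin. Of 21 adipocyte genes, 15 were lower and none higher, with a median of -2.32. In 18 of the 21, all healed samples lay below all normal samples, against 27.2% of all genes. Adipoq, the hormone adiponectin, was at 60.8, 70.8 and 31.3 CPM in healed skin and 219, 703 and 330.2 CPM in normal skin (log2 fold change -2.94 ± 0.68, adjusted p = 0.014). Adipoq was not called without acellular replicate 1 (adjusted p = 0.056) or normal replicate 2 (adjusted p = 0.054). Plin1, which coats the lipid droplet, was at 10.6, 19.2 and 9.18 CPM in healed skin and 75.4, 285 and 124 CPM in normal skin (log2 fold change -3.63 ± 0.91, adjusted p = 0.019). Plin1 was not called without acellular replicate 1 (adjusted p = 0.08) or acellular replicate 3 (adjusted p = 0.061) or normal replicate 2 (adjusted p = 0.065). Lep, the hormone leptin, was at 6.17, 7.24 and 2.81 CPM in healed skin and 64.1, 158 and 35.4 CPM in normal skin (log2 fold change -3.99 ± 0.85, adjusted p = 0.011). The groups did not overlap for these genes, and normal replicate 2 was the highest sample for each of them. Car3, a carbonic anhydrase abundant in fat and muscle, was at 495, 781 and 1543 CPM in healed skin and 6907, 8414 and 7172 CPM in normal skin (log2 fold change -2.996 ± 0.73, adjusted p = 0.017). Car3 was not called without acellular replicate 1 (adjusted p = 0.076) or acellular replicate 2 (adjusted p = 0.055). Lpl, the lipase that releases fatty acids from lipoproteins, was 4.71-fold lower and held (log2 fold change -2.24 ± 0.44, adjusted p = 0.0092). Outside the list, Mup19, of the multicopy major urinary protein family whose reads can be shared between copies, was at 8.05, 11.6 and 8.13 CPM in healed skin and 75.5, 453 and 245 CPM in normal skin (log2 fold change -4.80 ± 0.89, adjusted p = 0.0074). The number of adipocyte genes lower was 5, 11 and 7 without acellular replicates 1, 2 and 3, and 13, 6 and 11 without normal replicates 1, 2 and 3.

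Dermal fibroblast genes were lower in part. Of 21 genes of the dermal fibroblast lineage, 10 were lower and none higher, with a median of -1.41. Pi16, a marker of adventitial and fascial fibroblasts, was at 26.1, 41.6 and 50.4 CPM in healed skin and 245, 565 and 479.6 CPM in normal skin (log2 fold change -3.45 ± 0.60, adjusted p = 0.0062). Sfrp4, a secreted Wnt antagonist, was at 6.28, 6.40 and 5.85 CPM in healed skin and 34.4, 99.2 and 102 CPM in normal skin (log2 fold change -3.67 ± 0.84, adjusted p = 0.014). Sfrp4 was not called without acellular replicate 1 (adjusted p = 0.061). Dpp4 (CD26), a surface peptidase of dermal and fascial fibroblasts, was at 18.8, 27.6 and 24.1 CPM in healed skin and 37.8, 92.6 and 85.3 CPM in normal skin (log2 fold change -1.61 ± 0.35, adjusted p = 0.013). Dpp4 was not called without acellular replicate 1 (adjusted p = 0.058). Pdgfra, the general fibroblast receptor for PDGF, was lower in mean but not called, at 25.1, 41.1 and 37.4 CPM in healed skin and 39.6, 79.2 and 52.3 CPM in normal skin (log2 fold change -0.72 ± 0.37, adjusted p = 0.17). The number of fibroblast lineage genes lower was 1, 9 and 7 without acellular replicates 1, 2 and 3, and 9, 4 and 4 without normal replicates 1, 2 and 3.

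Fibrillar collagen genes were lower in part. Of 30 fibrillar collagen and crosslinking genes, 7 were lower and none higher in the edgeR fit of all samples, with a median of -0.56. Col1a1, the main chain of type I collagen, was at 766, 1125 and 794 CPM in healed skin and 1591, 5915 and 3071 CPM in normal skin (log2 fold change -1.98 ± 0.62, adjusted p = 0.043). Col1a1 was called without normal replicate 1 but in no other fit that left out 1 sample (adjusted p up to 0.16). Col3a1, of the more extensible type III collagen, was at 1155, 1858 and 1288 CPM in healed skin and 2344, 7255 and 3780.5 CPM in normal skin and just missed the threshold (log2 fold change -1.64 ± 0.57, adjusted p = 0.058). The normal samples differed several-fold among themselves for both chains. Dcn, decorin, a small proteoglycan that organises collagen fibrils, was at 294, 428 and 326 CPM in healed skin and 817, 1945 and 1779 CPM in normal skin (log2 fold change -2.12 ± 0.42, adjusted p = 0.0091). Ogn, osteoglycin, was at 28.2, 33.3 and 31.7 CPM in healed skin and 95.7, 229.5 and 201 CPM in normal skin (log2 fold change -2.50 ± 0.50, adjusted p = 0.0094), and both held, as did Pcolce, the enhancer of procollagen processing (-2.04 ± 0.37). Lum, lumican, was 3.97-fold lower and was called without acellular replicate 2 and normal replicate 1 but in no other fit that left out 1 sample (adjusted p up to 0.15). Over the list, the number lower was 3, 5 and 3 without acellular replicates 1, 2 and 3, and 7, 3 and 3 without normal replicates 1, 2 and 3.

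Of 30 scar and provisional matrix genes, 3 were higher and 3 lower, near the shares over all genes in both directions. Lrrc15, a membrane protein of activated fibroblasts, was at 68.9, 52.1 and 51.7 CPM in healed skin and 1.83, 2.01 and 1.48 CPM in normal skin. Every healed sample was far above every normal one (log2 fold change 5.02 ± 0.58, adjusted p = 0.0019), and the call held. Tnc, tenascin-C of provisional matrix, was at 78.2, 58.9 and 44.0 CPM in healed skin and 13.3, 9.31 and 8.72 CPM in normal skin (log2 fold change 2.53 ± 0.33, adjusted p = 0.0029) and held. Mmp12, the macrophage metalloelastase, was at 21.9, 318 and 45.1 CPM in healed skin and 9.48, 7.97 and 2.35 CPM in normal skin, highest in healed replicate 2, the sample with the most neutrophil transcripts (log2 fold change 4.28 ± 1.22, adjusted p = 0.029). Mmp12 was called without acellular replicate 1 and acellular replicate 3 but in no other fit that left out 1 sample (adjusted p up to 0.13). The part of those cells in the Mmp12 value was not tested. Sparc, a matricellular collagen-binding protein, was at 781, 1002 and 787 CPM in healed skin and 2165, 5959 and 3869 CPM in normal skin (log2 fold change -2.22 ± 0.42, adjusted p = 0.0075). Fn1, fibronectin, was at 62.9, 162 and 65.1 CPM in healed skin and 184, 562 and 433 CPM in normal skin (log2 fold change -2.02 ± 0.55, adjusted p = 0.026). Fn1 was called without acellular replicate 2 and normal replicate 1 but in no other fit that left out 1 sample (adjusted p up to 0.11). Postn, periostin, was not called at 843, 623 and 543 CPM in healed skin and 328, 466 and 408 CPM in normal skin (log2 fold change 0.74 ± 0.31, adjusted p = 0.096). Scar matrix genes lower numbered 1 to 3 with 1 sample left out, fewest without acellular replicate 1, acellular replicate 3, normal replicate 2 and normal replicate 3.

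Of 17 elastic fibre genes, 2 were higher and 5 lower. Elastic fibre genes higher numbered 0 to 1 with 1 sample left out, fewest without normal replicate 1, normal replicate 2 and normal replicate 3. Fbn2, the fibrillin of developing tissue, was at 3.54, 16.2 and 11.98 CPM in healed skin and 0.562, 0.737 and 0.805 CPM in normal skin (log2 fold change 3.90 ± 0.94, adjusted p = 0.017). Fbn2 was not called without normal replicate 1 (adjusted p = 0.055) or normal replicate 2 (adjusted p = 0.06) or normal replicate 3 (adjusted p = 0.063). Efemp1, fibulin-3, was at 23.3, 25.6 and 18.8 CPM in healed skin and 59.6, 137 and 105 CPM in normal skin (log2 fold change -2.15 ± 0.34, adjusted p = 0.0053). Ltbp4, a partner of latent TGF-beta in elastic fibres, was at 167, 120.1 and 113 CPM in healed skin and 249.6, 247 and 247 CPM in normal skin (log2 fold change -0.89 ± 0.21, adjusted p = 0.017). Ltbp4 was not called without acellular replicate 2 (adjusted p = 0.054) or acellular replicate 3 (adjusted p = 0.055). Eln, tropoelastin, overlapped between groups at 69.2, 198 and 53.2 CPM in healed skin and 93.7, 109 and 94.4 CPM in normal skin (log2 fold change 0.11 ± 0.77, adjusted p = 0.93). Of 21 basement membrane genes, 3 were higher and 5 lower. Lama3, a laminin chain of the epidermal basement membrane, was higher (0.80 ± 0.20). Lama3 was called without acellular replicate 2 and normal replicate 1 but in no other fit that left out 1 sample (adjusted p up to 0.08). Nid1, Lamc1, Lamb2 and Hspg2, found in basement membranes of vessels and muscle as well, were lower (Nid1 -1.64 ± 0.43, Lamc1 -1.41 ± 0.38, Lamb2 -1.26 ± 0.29, Hspg2 -1.16 ± 0.30). Nid1 was not called without acellular replicate 1 (adjusted p = 0.095) or acellular replicate 2 (adjusted p = 0.058) or normal replicate 2 (adjusted p = 0.085). Lamc1 was called without acellular replicate 3 and normal replicate 1 but in no other fit that left out 1 sample (adjusted p up to 0.1). Lamb2 was not called without acellular replicate 1 (adjusted p = 0.063) or normal replicate 2 (adjusted p = 0.053). Hspg2 was called without acellular replicate 3 and normal replicate 1 but in no other fit that left out 1 sample (adjusted p up to 0.093). The epidermal adhesion gene Col17a1 was not called at 1359, 909 and 954 CPM in healed skin and 739.9, 587 and 631 CPM in normal skin (log2 fold change 0.72 ± 0.35, adjusted p = 0.15). Elastic fibre genes lower numbered 2 to 5 with 1 sample left out, fewest without acellular replicate 1 and acellular replicate 3. Basement membrane genes lower numbered 0 to 4 with 1 sample left out, fewest without acellular replicate 1 and normal replicate 2. Those higher numbered 1, 3 and 1 without acellular replicates 1, 2 and 3. Without normal replicates 1, 2 and 3 they numbered 2, 1 and 1.

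**Figure D2:**
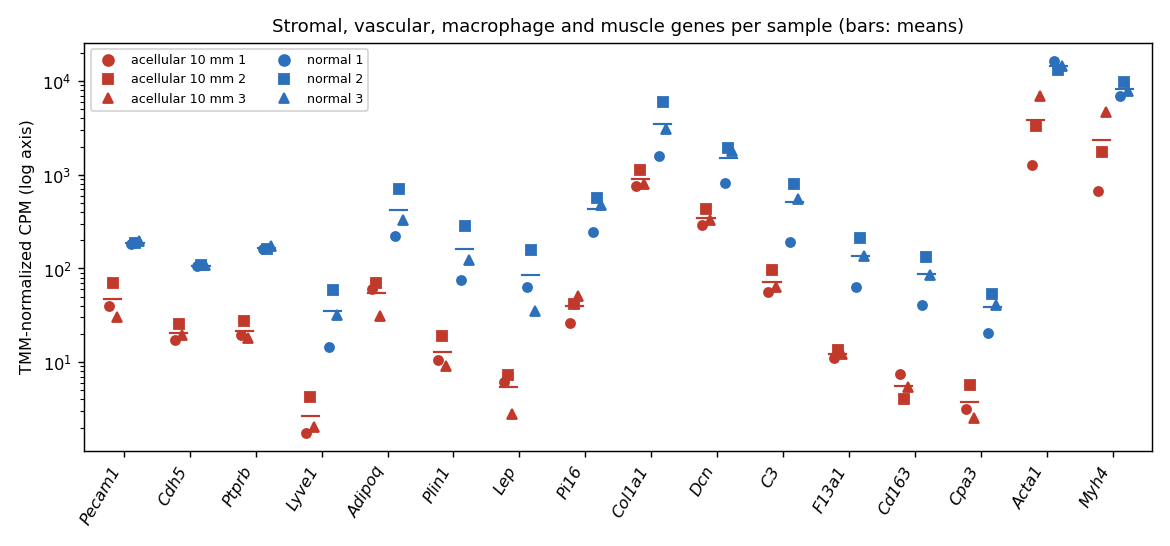
TMM-normalized CPM on a log axis for 16 genes of vessels, fat, dermis, resident immune cells and skeletal muscle, with acellular 10 mm samples in red, normal samples in blue, symbols for replicates 1 to 3 and bars for group means. For all 16 genes the 3 healed samples lie below the 3 normal samples, and Acta1 and Myh4 show the widest spread between healed samples.

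Several genes of tissue-resident macrophages were far lower. Of 22 macrophage genes, 11 were lower and 1 higher. Cd163, the haemoglobin scavenger receptor, was at 7.48, 4.04 and 5.38 CPM in healed skin and 40.7, 134 and 85.0 CPM in normal skin (log2 fold change -3.94 ± 0.60, adjusted p = 0.005). Cd209f, a C-type lectin of dermal macrophages, was at 0.970, 0.618 and 0.818 CPM in healed skin and 8.36, 37.6 and 30.0 CPM in normal skin (log2 fold change -4.97 ± 0.89, adjusted p = 0.0065), with Folr2 and Retnla, further genes of resident or alternatively activated macrophages, close behind (Folr2 -3.87 ± 0.67, Retnla -4.35 ± 0.84). These 4 genes held, and for each of them normal replicate 1 was the lowest normal sample, still above every healed sample. F13a1, the coagulation factor XIII subunit carried by dermal macrophages, was at 11.1, 13.5 and 12.2 CPM in healed skin and 63.8, 213 and 135 CPM in normal skin (log2 fold change -3.48 ± 0.47, adjusted p = 0.003). General macrophage genes did not all fall. Cd68, a lysosomal protein of phagocytes, was at 8.90, 42.2 and 7.48 CPM in healed skin and 18.5, 27.0 and 16.4 CPM in normal skin (log2 fold change -0.08 ± 0.63, adjusted p = 0.94). Lyz2, lysozyme, was at 105, 795 and 102 CPM in healed skin and 228, 480.0 and 311 CPM in normal skin (log2 fold change -0.02 ± 0.80, adjusted p = 0.98), and in both healed replicate 2 was the highest of the 6 samples. Adgre1 (F4/80) was at 5.77, 13.2 and 4.27 CPM in healed skin and 22.1, 30.7 and 19.9 CPM in normal skin (log2 fold change -1.64 ± 0.53, adjusted p = 0.045). Adgre1 was called without acellular replicate 2 but in no other fit that left out 1 sample (adjusted p up to 0.16). The 1 gene higher was Gpnmb, a glycoprotein of phagocytes and melanocytes, at 101, 309 and 70.7 CPM in healed skin and 45.2, 61.5 and 45.9 CPM in normal skin (log2 fold change 1.65 ± 0.53, adjusted p = 0.045). Gpnmb was called without acellular replicate 3 but in no other fit that left out 1 sample (adjusted p up to 0.23). The macrophage genes lower numbered 6, 12 and 8 without acellular replicates 1, 2 and 3, and 10, 6 and 8 without normal replicates 1, 2 and 3.

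Other genes expressed by resident macrophages stood among the 15 most reduced by fold. Fcna, ficolin A, a lectin that starts complement activation, was at 0.742, 1.07 and 1.23 CPM in healed skin and 8.57, 43.4 and 24.6 CPM in normal skin (log2 fold change -4.65 ± 0.57, adjusted p = 0.0023). Siglec1 (CD169), a sialic acid receptor, was at 0.685, 2.13 and 2.16 CPM in healed skin and 12.3, 40.8 and 25.1 CPM in normal skin (log2 fold change -3.97 ± 0.66, adjusted p = 0.0057). Cd209g followed at -4.47 ± 0.82. Also among those 15 were Ifitm6 (-4.67 ± 0.67), Gkn3 (-4.48 ± 0.77), Cytl1 (-4.14 ± 1.03), Tmem179 (-3.98 ± 0.96) and Nnat, an imprinted proteolipid gene active in fat, at 6.17, 4.66 and 3.10 CPM in healed skin and 55.2, 155 and 21.5 CPM in normal skin (log2 fold change -4.05 ± 0.76, adjusted p = 0.0076). Cytl1 was not called without acellular replicate 1 (adjusted p = 0.079) or acellular replicate 3 (adjusted p = 0.058) or normal replicate 3 (adjusted p = 0.063). Tmem179 was not called without acellular replicate 1 (adjusted p = 0.072) or acellular replicate 3 (adjusted p = 0.055) or normal replicate 2 (adjusted p = 0.061).

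Complement genes were lower in healed skin. Of 15 complement genes, 11 were lower and none higher, with a median of -1.71. C3, the central component, was at 55.9, 95.4 and 63.5 CPM in healed skin and 192, 803 and 551 CPM in normal skin (log2 fold change -2.85 ± 0.71, adjusted p = 0.019). C3 was called without acellular replicate 2 and normal replicate 1 but in no other fit that left out 1 sample (adjusted p up to 0.079). Serping1, the C1 inhibitor, was at 59.1, 79.8 and 49.6 CPM in healed skin and 204, 428 and 364 CPM in normal skin (log2 fold change -2.40 ± 0.46, adjusted p = 0.0086). Cfb, factor B of the alternative pathway, was at 17.9, 24.5 and 10.9 CPM in healed skin and 49.6, 129 and 65.7 CPM in normal skin (log2 fold change -2.20 ± 0.45, adjusted p = 0.0099). Cfd, the factor D that cleaves factor B and is secreted by fat cells, was at 208, 313 and 137 CPM in healed skin and 808, 2297 and 1541 CPM in normal skin (log2 fold change -2.82 ± 0.67, adjusted p = 0.016). Cfd was not called without acellular replicate 1 (adjusted p = 0.068) or acellular replicate 3 (adjusted p = 0.054) or normal replicate 2 (adjusted p = 0.056). Serping1 and Cfb held. The complement genes lower numbered 2, 12 and 6 without acellular replicates 1, 2 and 3, and 11, 3 and 6 without normal replicates 1, 2 and 3. Fat, fibroblast and macrophage genes, which fell in the same samples, are expressed by cells that also make complement, and their part in these values was not tested.

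Some mast cell genes were lower. Of 10 mast cell genes, 5 were lower. Cpa3, the mast cell carboxypeptidase, was at 3.14, 5.67 and 2.51 CPM in healed skin and 20.7, 53.4 and 41.2 CPM in normal skin (log2 fold change -3.35 ± 0.62, adjusted p = 0.0074) and held. Mcpt4, a connective tissue mast cell chymase, was at 7.08, 16.4 and 4.91 CPM in healed skin and 40.3, 86.8 and 59.2 CPM in normal skin (log2 fold change -2.71 ± 0.62, adjusted p = 0.014). Mcpt4 was not called without acellular replicate 1 (adjusted p = 0.065) or normal replicate 2 (adjusted p = 0.052). Mast cell genes lower numbered 1 to 5 with 1 sample left out, fewest without acellular replicate 1. Kit, the receptor for stem cell factor, which melanocytes also carry, overlapped between groups at 13.4, 20.5 and 22.5 CPM in healed skin and 13.4, 20.0 and 18.8 CPM in normal skin (log2 fold change 0.11 ± 0.48, adjusted p = 0.88). Among 23 T and NK cell genes the edgeR fit of all groups called none, with 1 at an unadjusted p below 0.05. DESeq2 called 1 higher, a fit of only the 6 samples 3 and the replicate block 1. Cd3e, a chain of the T cell receptor complex, was at 4.00, 2.75 and 2.57 CPM in healed skin and 6.04, 3.75 and 3.56 CPM in normal skin (log2 fold change -0.52 ± 0.63, adjusted p = 0.56). Only 4 of 10 B and plasma cell genes passed the filter on low counts, and neither edgeR nor DESeq2 called any, with 2 at an unadjusted p below 0.05. Of 20 Langerhans and dendritic cell genes, 1 was higher (Epcam, which follicle and gland keratinocytes also express, 1.58 ± 0.32) and 2 were lower. The count lower was 0 without any 1 of the acellular replicates. It was 1, 0 and 0 without normal replicates 1, 2 and 3. Cd207, the langerin that defines Langerhans cells, was at 30.1, 41.9 and 18.5 CPM in healed skin and 30.2, 28.8 and 26.0 CPM in normal skin (log2 fold change 0.09 ± 0.58, adjusted p = 0.92).

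The summed neutrophil list was high in healed replicate 2. Of 12 neutrophil genes tested, 1 was called, Cxcl1, a chemokine that attracts neutrophils, at 0.799, 3.26 and 4.68 CPM in healed skin and 0.632, 0.670 and 0.403 CPM in normal skin (log2 fold change 2.34 ± 0.62, adjusted p = 0.023). Cxcl1 was called without acellular replicate 1 but in no other fit that left out 1 sample (adjusted p up to 0.09). S100a8, a calprotectin subunit, was at 1.94, 7.08 and 2.05 CPM in healed skin and 3.65, 1.34 and 2.68 CPM in normal skin. Il1b, interleukin-1 beta, was at 3.88, 23.7 and 7.19 CPM in healed skin and 1.55, 2.61 and 2.95 CPM in normal skin. Clec4d, a C-type lectin receptor of myeloid cells, was at 0.571, 21.6 and 1.64 CPM in healed skin and 1.55, 0.670 and 0.403 CPM in normal skin. Healed replicate 2 was the highest sample for the 3 genes, and none of them was called (S100a8 0.53 ± 1.21, Il1b 2.29 ± 1.197, Clec4d 3.18 ± 1.501).

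Skeletal muscle transcripts were lower in every healed sample for nearly the whole list, and the edgeR fit of all samples called none of them. Of 30 muscle genes, 29 had all healed samples below all normal samples, against 27.2% of all genes, and the median log2 fold change was -1.88. The edgeR test called none of them, and 3 had an unadjusted p below 0.05. The summed list was 8104, 20909 and 43693 CPM in healed skin and 95351, 76894 and 86358 CPM in normal skin. Acta1, the skeletal alpha-actin, was at 1278, 3346 and 6876 CPM in healed skin and 16286, 12981 and 14652 CPM in normal skin (log2 fold change -1.93 ± 1.22, adjusted p = 0.26). Myh1, a fast myosin heavy chain, was at 482, 826 and 2239 CPM in healed skin and 9695, 4574 and 7954 CPM in normal skin (log2 fold change -2.65 ± 1.15, adjusted p = 0.11). Pax7, the transcription factor of muscle stem cells, was at 0.400, 0.730 and 1.40 CPM in healed skin and 6.11, 3.55 and 3.22 CPM in normal skin (log2 fold change -2.34 ± 1.09, adjusted p = 0.14). Among healed samples, replicate 1 was lowest and replicate 3 highest for Acta1, Myh1 and Pax7. A fit of only the 6 samples called 21 of the 30 genes lower (against 21.8% of all genes in that fit), and DESeq2 called 3 (against 18.3%).

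Mitochondrial energy genes were lower in part. Of 32 oxidative phosphorylation genes, 10 were lower and none higher, with a median of -0.57, and the summed list was 6541, 7483 and 8344 CPM in healed skin and 12557, 9654 and 10951 CPM in normal skin. The order of the healed samples is the order of their muscle transcripts, and the part of muscle in these values was not tested. Sdha, of succinate dehydrogenase, was at 170.1, 222 and 275 CPM in healed skin and 483, 419 and 444 CPM in normal skin (log2 fold change -1.01 ± 0.29, adjusted p = 0.029). Sdha was called without acellular replicate 3 but in no other fit that left out 1 sample (adjusted p up to 0.12). Ppargc1a, the coactivator of mitochondrial biogenesis, was at 3.25, 4.27 and 7.25 CPM in healed skin and 38.8, 14.4 and 21.4 CPM in normal skin (log2 fold change -2.33 ± 0.71, adjusted p = 0.038). Ppargc1a was called in none of the 6 fits that left out 1 sample (adjusted p from 0.056 to 0.14). The count of oxidative phosphorylation genes lower was 0, 1 and 2 without acellular replicates 1, 2 and 3, and 0, 2 and 0 without normal replicates 1, 2 and 3. DESeq2 called 21 lower (against 18.3% of all genes) and 1 higher. A fit of only the 6 samples called 25 lower (against 21.8%) and 1 higher. With the replicate block 3 were lower, and with no filter 5. Of 21 fatty acid oxidation genes, 5 were lower, among them Acsl1, which activates fatty acids, at 139, 159 and 146 CPM in healed skin and 333, 478 and 303 CPM in normal skin (log2 fold change -1.33 ± 0.32, adjusted p = 0.016). Acsl1 was not called without acellular replicate 1 (adjusted p = 0.068) or normal replicate 2 (adjusted p = 0.06). Fatty acid oxidation genes lower numbered 0 to 4 with 1 sample left out, fewest without acellular replicate 1.

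Glycolytic genes moved both ways. Of 26 glycolysis and hypoxia genes, 7 were higher and 4 lower, whereas DESeq2 gave 7 and 11 and a fit of only the 6 samples 7 and 13. Hk2, the hexokinase abundant in muscle and fat, was at 57.0, 75.1 and 106 CPM in healed skin and 397, 224 and 273 CPM in normal skin (log2 fold change -1.91 ± 0.39, adjusted p = 0.01), and held. Ldha, lactate dehydrogenase A, was at 614, 892 and 999 CPM in healed skin and 2079, 1814 and 1739 CPM in normal skin (log2 fold change -1.17 ± 0.34, adjusted p = 0.033). Ldha was called in none of the 6 fits that left out 1 sample (adjusted p from 0.053 to 0.13). Among the genes higher, Slc2a1, the GLUT1 glucose transporter of keratinocytes, was at 103, 137 and 80.4 CPM in healed skin and 46.2, 44.8 and 42.8 CPM in normal skin (log2 fold change 1.26 ± 0.29, adjusted p = 0.014). Slc2a1 was not called without normal replicate 2 (adjusted p = 0.054) or normal replicate 3 (adjusted p = 0.061). Egln3, a prolyl hydroxylase induced by hypoxia, was at 120.3, 215 and 118 CPM in healed skin and 45.0, 39.5 and 49.97 CPM in normal skin (log2 fold change 1.75 ± 0.33, adjusted p = 0.0075), and held. Glycolysis and hypoxia genes higher numbered 2 to 7 with 1 sample left out, fewest without normal replicate 3. Glycolysis and hypoxia genes lower numbered 1 to 2 with 1 sample left out, fewest without acellular replicate 1, acellular replicate 2, normal replicate 1, normal replicate 2 and normal replicate 3.

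Inner root sheath genes were higher in part, and the healed samples differed widely in follicle genes. Of 11 inner root sheath genes, 6 were higher and none lower, with a fitted median of 8.43, or 6.97 with genes absent from normal skin set to their lower bound. Krt25, a type I keratin of the inner root sheath (chromosome 11, 99315516 to 99322951), was at 152, 0.169 and 91.9 CPM in healed skin and had 0 counts in all normal samples. Against a floor of 3 counts per library its mean was at least 399-fold higher in healed skin (adjusted p = 0.047). Krt25 was called without acellular replicate 2 but in no other fit that left out 1 sample (adjusted p up to 0.12). Krt73, a type II keratin of its cuticle (chromosome 15, 101793304 to 101802360), was at 118, 1.74 and 76.6 CPM against 0 counts and was at least 320.3-fold higher (adjusted p = 0.033). Krt73 was called without acellular replicate 2 but in no other fit that left out 1 sample (adjusted p up to 0.093). Krt71, the type II partner in all inner root sheath layers (chromosome 15, 101733949 to 101743097), was at 169, 1.01 and 83.2 CPM in healed skin and 0.141, 0.0670 and 0.0671 CPM in normal skin (log2 fold change 9.75 ± 2.64, adjusted p = 0.025). Krt71 was called without acellular replicate 2 and acellular replicate 3 but in no other fit that left out 1 sample (adjusted p up to 0.09). Healed replicate 2 was near normal skin for these 3 keratins and far below replicate 1. Tchh, trichohyalin, which hardens the sheath, was at 510.0, 9.55 and 59.3 CPM in healed skin and 5.34, 5.69 and 5.23 CPM in normal skin and was not called (log2 fold change 5.15 ± 1.78, adjusted p = 0.057). The inner root sheath genes higher numbered 0, 7 and 1 without acellular replicates 1, 2 and 3, and 0, 0 and 0 without normal replicates 1, 2 and 3.

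Of 22 hair shaft genes, 2 were higher (Krt35 and S100a3), a share no larger than over all genes. None was lower in the edgeR fit of all samples. The fitted median was 7.84, and 5.56 with absent genes at their bound. Krt35, an early hair cortex keratin, was at 119.6, 0.225 and 88.0 CPM in healed skin and 0.0703, 0.335 and 0.0671 CPM in normal skin (log2 fold change 8.71 ± 2.62, adjusted p = 0.036). Krt35 was called without acellular replicate 2 but in no other fit that left out 1 sample (adjusted p up to 0.12). In healed replicate 2 it was within the range of normal skin. Krt31, a later cortex keratin, was at 67.6, 0.393 and 15.1 CPM in healed skin and 0.351, 0.134 and 0.403 CPM in normal skin and was not called (log2 fold change 6.52 ± 2.42, adjusted p = 0.071). S100a3, a calcium-binding protein of the hair cuticle, was at 181, 1.18 and 38.9 CPM in healed skin and 0.281, 0.134 and 0.537 CPM in normal skin (log2 fold change 7.83 ± 2.29, adjusted p = 0.033). S100a3 was called without acellular replicate 2 but in no other fit that left out 1 sample (adjusted p up to 0.11). Prr9, a proline-rich protein, was higher without overlap at 163, 13.4 and 23.3 CPM in healed skin and 0.141, 0.201 and 0.268 CPM in normal skin (log2 fold change 8.30 ± 1.76, adjusted p = 0.011). Prr9 was called in all 6 fits that left out 1 sample. DESeq2 called 18 of the 22 shaft genes. In a fit of only the 6 samples just 4 genes of the list passed the filter, of which 3 were called higher and 1 lower. Krt35 and Krt31 were not tested in that fit. Further genes among the 15 most raised were Krt26, Krt27 and Krt72 of the inner root sheath, Tgm6, a transglutaminase, Tchhl1, a trichohyalin-like protein, Pinlyp, Spink12 and AU018091, in all of which healed replicate 1 was the highest sample. None of them held. Krt26, Krt27, Krt72 and Tgm6 were called in 1 of the 6 fits that left out 1 sample. Tchhl1, Pinlyp and Spink12 were called in 2 of these fits and AU018091 in 3. Hair shaft genes higher numbered 0 to 2 with 1 sample left out, fewest without acellular replicate 1, acellular replicate 3, normal replicate 1, normal replicate 2 and normal replicate 3.

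Genes that direct the follicle were more even across samples. Of 16 hair matrix regulators, 4 were higher. Hoxc13, the homeobox activator of hair keratins, was at 59.9, 11.0 and 35.1 CPM in healed skin and 3.79, 3.88 and 3.15 CPM in normal skin (log2 fold change 3.29 ± 0.90, adjusted p = 0.026). Hoxc13 was called without acellular replicate 2 but in no other fit that left out 1 sample (adjusted p up to 0.098). Vdr, the vitamin D receptor needed for hair cycling, was at 241, 174 and 202 CPM in healed skin and 69.5, 62.7 and 51.0 CPM in normal skin (log2 fold change 1.75 ± 0.32, adjusted p = 0.0067) and held. Foxn1, the nude gene, was at 15.6, 6.06 and 8.89 CPM in healed skin and 2.88, 3.41 and 3.29 CPM in normal skin and was not called (log2 fold change 1.67 ± 0.84, adjusted p = 0.16). Of 17 bulge and outer root sheath genes, 6 were higher and 2 lower. Lgr5, an R-spondin receptor of follicle stem cells, was at 50.5, 35.7 and 42.4 CPM in healed skin and 7.17, 10.2 and 9.79 CPM in normal skin (log2 fold change 2.24 ± 0.49, adjusted p = 0.013), and held. Sox9, the transcription factor of bulge and outer root sheath cells, was at 153, 70.2 and 71.1 CPM in healed skin and 25.2, 26.3 and 22.9 CPM in normal skin (log2 fold change 1.99 ± 0.44, adjusted p = 0.013). Sox9 was not called without acellular replicate 1 (adjusted p = 0.058) or normal replicate 3 (adjusted p = 0.055). Cd34, a bulge marker that endothelial cells and fibroblasts express too, was lower at 121, 128 and 119 CPM in healed skin and 219, 451 and 421 CPM in normal skin (log2 fold change -1.57 ± 0.36, adjusted p = 0.014). Cd34 was not called without acellular replicate 1 (adjusted p = 0.059) or normal replicate 2 (adjusted p = 0.054) or normal replicate 3 (adjusted p = 0.054). The other gene lower was Tcf7l1 (TCF3), a repressor of Wnt targets in the bulge, at 12.04, 8.54 and 11.5 CPM in healed skin and 18.5, 23.1 and 22.3 CPM in normal skin (log2 fold change -0.99 ± 0.28, adjusted p = 0.028). Tcf7l1 was called without normal replicate 1 but in no other fit that left out 1 sample (adjusted p up to 0.088). Hair matrix genes higher numbered 1 to 3 with 1 sample left out, fewest without acellular replicate 1, normal replicate 2 and normal replicate 3. Bulge and outer root sheath genes higher numbered 1 to 5 with 1 sample left out, fewest without acellular replicate 1 and normal replicate 3.

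Of 17 dermal papilla genes, 2 were higher and 1 was lower (Lepr, the leptin receptor, -1.11 ± 0.37). Lepr was called in none of the 6 fits that left out 1 sample (adjusted p from 0.088 to 0.14). Corin, a serine protease of the papilla, was at 7.48, 4.66 and 18.6 CPM in healed skin and 1.12, 1.14 and 1.34 CPM in normal skin (log2 fold change 3.09 ± 0.71, adjusted p = 0.014), with healed replicate 3 highest. Corin was not called without normal replicate 2 (adjusted p = 0.054) or normal replicate 3 (adjusted p = 0.053). Sostdc1, an inhibitor of BMP and Wnt ligands made in papilla and follicle epithelium, was at 135, 118 and 106 CPM in healed skin and 34.9, 26.9 and 25.3 CPM in normal skin (log2 fold change 2.04 ± 0.21, adjusted p = 0.0014), one of the smallest p-values of the whole comparison. Sox2, a papilla marker of larger hair types, overlapped at 2.57, 2.81 and 2.63 CPM in healed skin and 3.02, 1.41 and 2.88 CPM in normal skin (log2 fold change 0.13 ± 0.29, adjusted p = 0.76). Hedgehog genes added a sample-specific pattern. Of 14 tested, 2 were higher, the receptors Smo and Boc (Smo 0.49 ± 0.12, Boc 0.62 ± 0.13). Smo was called without acellular replicate 2 and normal replicate 2 but in no other fit that left out 1 sample (adjusted p up to 0.085). Boc was not called without normal replicate 2 (adjusted p = 0.051) or normal replicate 3 (adjusted p = 0.055). Shh, the ligand made by growing follicles, was at 0.457, 0.393 and 21.7 CPM in healed skin and 0.562, 0.937 and 0.268 CPM in normal skin and was not called (log2 fold change 3.66 ± 1.94, adjusted p = 0.18). Its targets Gli1, at 17.1, 18.4 and 53.4 CPM in healed skin, and Ptch1, at 33.1, 28.3 and 83.5 CPM, were also highest in replicate 3.

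**Figure D3:**
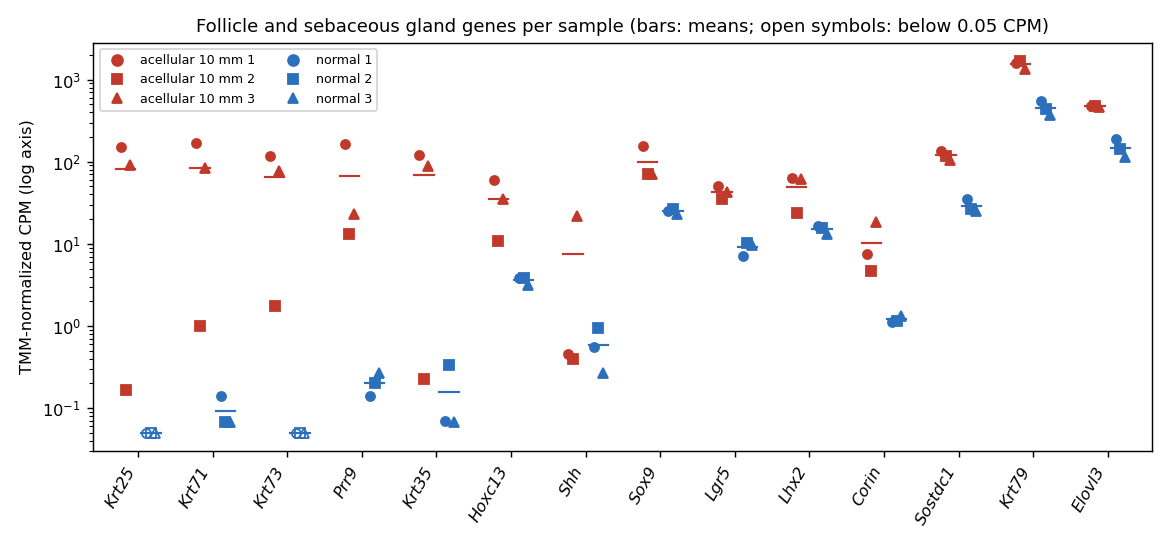
TMM-normalized CPM on a log axis for inner root sheath (Krt25, Krt71, Krt73), shaft (Prr9, Krt35), matrix (Hoxc13, Shh), bulge (Sox9, Lgr5, Lhx2), papilla (Corin, Sostdc1) and sebaceous (Krt79, Elovl3) genes, with acellular 10 mm samples in red, normal samples in blue and bars for means. Keratins of healed replicate 2 (squares) drop towards normal skin, Shh is high in replicate 3 alone, and Lgr5, Sostdc1, Krt79 and Elovl3 are raised in all 3 healed samples.

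Sebaceous gland genes were higher in part. Of 18 tested, 10 were higher and none lower, with a median of 1.03. Krt79, a keratin of the gland duct, was at 1571, 1669.7 and 1350.3 CPM in healed skin and 555, 439 and 367 CPM in normal skin (log2 fold change 1.75 ± 0.28, adjusted p = 0.0053). Elovl3, a fatty acid elongase of sebocytes, was at 479, 470.2 and 462 CPM in healed skin and 188, 141 and 116 CPM in normal skin (log2 fold change 1.66 ± 0.30, adjusted p = 0.0067), and both held. Mc5r, the melanocortin receptor of the gland, was at 148, 94.9 and 235 CPM in healed skin and 80.9, 50.1 and 52.6 CPM in normal skin (log2 fold change 1.38 ± 0.35, adjusted p = 0.019). Mc5r was called without acellular replicate 2 and normal replicate 1 but in no other fit that left out 1 sample (adjusted p up to 0.08). Scd1, a desaturase shared with fat, overlapped at 6809, 7579 and 8340.2 CPM in healed skin and 4769.6, 7409.6 and 3157 CPM in normal skin (log2 fold change 0.57 ± 0.42, adjusted p = 0.33). The number of sebaceous genes higher was 5, 8 and 6 without acellular replicates 1, 2 and 3, and 10, 2 and 2 without normal replicates 1, 2 and 3. Sterol and fatty acid synthesis followed, with 15 of 28 genes higher and none lower and a median of 0.70. Sqle, squalene epoxidase, was at 202, 207 and 226 CPM in healed skin and 114, 91.9 and 94.8 CPM in normal skin (log2 fold change 1.08 ± 0.19, adjusted p = 0.0064). Fasn, fatty acid synthase, overlapped between groups, with normal replicate 2 highest, at 956, 835 and 1190.4 CPM in healed skin and 757, 2044 and 749.8 CPM in normal skin (log2 fold change -0.25 ± 0.52, adjusted p = 0.75). The count higher was 8, 12 and 10 without acellular replicates 1, 2 and 3, and 13, 6 and 4 without normal replicates 1, 2 and 3.

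Of 30 epidermal genes, 3 were higher (10.0%, against 9.77% of all genes) and none was lower, with a median of -0.16. Krt14, of the keratin pair of basal cells, was at the levels given above (log2 fold change 1.53 ± 0.40, adjusted p = 0.022). Its partner Krt5 was at 7963, 5557 and 5274 CPM in healed skin and 3046, 2284 and 2225 CPM in normal skin (log2 fold change 1.31 ± 0.36, adjusted p = 0.027). Pkp1, a desmosomal plaque protein, was the third (0.88 ± 0.23), and none of the 3 was called without acellular replicate 1 or without normal replicate 2 or 3. Krt10 and Krt1, of the spinous layer, did not pass the test (Krt10 -0.71 ± 0.45, Krt1 -0.23 ± 0.44). Lor, loricrin of the cornified envelope, was at 130.5, 108 and 55.2 CPM in healed skin and 467, 404 and 466 CPM in normal skin (log2 fold change -2.18 ± 0.72, adjusted p = 0.05001), which did not pass the threshold, and RLE scaling put it below (adjusted p = 0.049). DESeq2 called 5 epidermal genes lower and a fit of only the 6 samples 8.

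Some genes of activated keratinocytes were higher. Of 14 wound keratinocyte genes tested from a list of 22, 5 were higher and none lower, with a median of 1.92. Krt16 was at 81.1, 42.4 and 21.7 CPM in healed skin and 5.34, 3.28 and 2.55 CPM in normal skin (log2 fold change 3.70 ± 1.04, adjusted p = 0.029). Krt16 was called without acellular replicate 3 but in no other fit that left out 1 sample (adjusted p up to 0.1). Krt17, which the follicle outer root sheath also makes, was at 1800.1, 1071 and 834 CPM in healed skin and 308, 355 and 293 CPM in normal skin (log2 fold change 1.95 ± 0.48, adjusted p = 0.018). Krt17 was called without acellular replicate 2 and acellular replicate 3 but in no other fit that left out 1 sample (adjusted p up to 0.077). Sprr1a, a cornified envelope precursor of injured epidermis, was at 169, 52.3 and 29.9 CPM in healed skin and 9.20, 10.5 and 4.90 CPM in normal skin (log2 fold change 3.35 ± 0.83, adjusted p = 0.018). Sprr1a was called without acellular replicate 2 and acellular replicate 3 but in no other fit that left out 1 sample (adjusted p up to 0.083). Krt6a was at 872, 333 and 309.6 CPM in healed skin and 198, 123 and 89.0 CPM in normal skin and was not called (log2 fold change 1.88 ± 0.68, adjusted p = 0.066). Healed replicate 1 was highest for all 4 genes. The count higher was 0, 3 and 4 without acellular replicates 1, 2 and 3, and 0, 0 and 1 without normal replicates 1, 2 and 3. Gjb2 and Gjb6, connexins of wound-edge and follicle keratinocytes, were called higher (Gjb2 4.97 ± 1.05, Gjb6 4.68 ± 0.83).

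Cell division genes were higher for the most part. Of 34 cell cycle genes, 24 were higher and none lower, with a median of 2.09. In 33 of the 34, every healed sample lay above every normal one, against 29.1% of all genes. Mki67, the proliferation antigen, was at 135, 161 and 280.0 CPM in healed skin and 44.8, 45.2 and 38.0 CPM in normal skin (log2 fold change 2.17 ± 0.55, adjusted p = 0.02). Mki67 was called without acellular replicate 1 and acellular replicate 2 but in no other fit that left out 1 sample (adjusted p up to 0.075). Ccnb1, cyclin B1, was at 24.1, 36.0 and 41.7 CPM in healed skin and 6.53, 6.03 and 4.96 CPM in normal skin (log2 fold change 2.54 ± 0.51, adjusted p = 0.0098). Cdc20, the activator of the anaphase complex, was at 19.9, 30.5 and 37.9 CPM in healed skin and 5.41, 6.16 and 3.49 CPM in normal skin (log2 fold change 2.55 ± 0.51, adjusted p = 0.0096), and both held. Mcm7, of the replicative helicase, was not called, at 62.0, 55.9 and 66.4 CPM in healed skin and 36.3, 38.6 and 34.3 CPM in normal skin (log2 fold change 0.76 ± 0.31, adjusted p = 0.095). Healed replicate 3, the sample with Shh, was the highest for Mki67, Ccnb1 and Cdc20. The cell cycle genes higher numbered 17, 20 and 13 without acellular replicates 1, 2 and 3, and 15, 9 and 6 without normal replicates 1, 2 and 3.

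Inflammatory signals were raised for some chemokines and reduced for others. Of 29 chemokine and cytokine genes tested, 7 were higher and 2 lower. Ccl2, the monocyte attractant, was at 22.7, 42.5 and 24.5 CPM in healed skin and 2.74, 3.55 and 2.48 CPM in normal skin (log2 fold change 3.35 ± 0.57, adjusted p = 0.006). Ccl27a, a keratinocyte chemokine for T cells, was at 118, 140.3 and 69.3 CPM in healed skin and 24.6, 17.8 and 22.0 CPM in normal skin (log2 fold change 2.34 ± 0.41, adjusted p = 0.0062), and both held. Il12b, the shared subunit of interleukins 12 and 23, was at 2.68, 5.56 and 2.05 CPM in healed skin and 0.281, 0.335 and 0.537 CPM in normal skin (log2 fold change 3.13 ± 0.85, adjusted p = 0.025). Il12b was called without acellular replicate 3 but in no other fit that left out 1 sample (adjusted p up to 0.084). Ccl1, outside the list, was at 6.22, 8.26 and 2.92 CPM in healed skin and 0.141, 0 and 0.201 CPM in normal skin (log2 fold change 5.59 ± 0.88, adjusted p = 0.0052). The genes lower were Cxcl13, a B cell chemokine also made by resident macrophages, at 0.628, 0.562 and 0.468 CPM in healed skin and 5.83, 20.2 and 16.8 CPM in normal skin (log2 fold change -4.67 ± 0.46, adjusted p = 0.0014). Ccl8, a monocyte attractant, was at 11.2, 13.8 and 7.01 CPM in healed skin and 22.1, 87.9 and 58.6 CPM in normal skin (log2 fold change -2.40 ± 0.42, adjusted p = 0.0062). Cxcl13 had one of the smallest p-values of all genes, and it held. Chemokine and cytokine genes higher numbered 3 to 6 with 1 sample left out, fewest without acellular replicate 2, normal replicate 1, normal replicate 2 and normal replicate 3.

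Of 35 interferon-responsive genes tested, 3 were higher and 3 lower, below the shares over all genes in both directions, with a median of -0.10. A fit of only the 6 samples gave 10 higher and 6 lower, with the share higher above that fit's 20.2% over all genes. Cxcl9, a chemokine induced by interferon gamma, was at 49.5, 67.6 and 24.1 CPM in healed skin and 4.15, 6.09 and 4.63 CPM in normal skin (log2 fold change 3.25 ± 0.72, adjusted p = 0.013). Cxcl9 was not called without normal replicate 3 (adjusted p = 0.057). Cxcl10, of the same kind, was at 8.39, 9.72 and 5.09 CPM in healed skin and 0.632, 0.937 and 0.671 CPM in normal skin (log2 fold change 3.36 ± 0.67, adjusted p = 0.0095). Ifit3, an antiviral protein of the type I response, was lower at 5.31, 5.11 and 3.68 CPM in healed skin and 17.4, 19.6 and 17.6 CPM in normal skin (log2 fold change -1.95 ± 0.34, adjusted p = 0.0062). Its relative Ifit2 was at 6.05, 8.31 and 6.90 CPM in healed skin and 22.6, 24.0 and 22.9 CPM in normal skin (log2 fold change -1.71 ± 0.26, adjusted p = 0.0046). Cxcl10, Ifit3 and Ifit2 held. Interferon genes higher numbered 1 to 3 with 1 sample left out, fewest without normal replicate 3.

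The promoters of a raised and of a reduced gene are printed because both hold the same element, the core of the interferon-stimulated response element (GAAANNGAAA, searched on both strands), while their transcripts moved in opposite directions. The windows run 5′ to 3′ on the gene's strand from 250 bases before to 50 bases after the RefSeq start on GRCm38.p6, and capitals mark the motif. The Cxcl10 window lies at chr5:92348840-92349139 on the minus strand and the Ifit3 window at chr19:34583279-34583578 on the plus strand.
Cxcl10: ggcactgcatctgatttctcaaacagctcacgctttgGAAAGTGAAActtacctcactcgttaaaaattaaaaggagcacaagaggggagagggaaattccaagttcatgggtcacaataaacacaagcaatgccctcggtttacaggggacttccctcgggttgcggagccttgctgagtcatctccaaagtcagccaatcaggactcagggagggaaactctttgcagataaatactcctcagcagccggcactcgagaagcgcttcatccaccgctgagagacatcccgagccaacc
Ifit3: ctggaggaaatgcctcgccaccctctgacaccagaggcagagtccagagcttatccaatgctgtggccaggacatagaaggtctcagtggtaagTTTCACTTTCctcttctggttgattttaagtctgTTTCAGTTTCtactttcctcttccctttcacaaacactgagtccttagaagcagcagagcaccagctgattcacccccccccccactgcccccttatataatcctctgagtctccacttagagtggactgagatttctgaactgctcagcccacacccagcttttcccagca
Cxcl10 holds 1 match and Ifit3 holds 2. Of the 28 interferon list members with a RefSeq window, 16 (57.1%) held the motif, against 3.99% of all 27025 genes with a window. Among the 6 members called, these 2 held it, so most motif-bearing members were not called. A match is a description of the letters and was not tested for binding. In the skeletal muscle list, the MEF2 core CTANNNNTAG stood in 3 of 22 members with a window (13.6%, against 4.23% of all genes), namely Ttn, Des and Xirp2, and no muscle promoter is printed.

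Of 44 Wnt genes, 6 were higher and 4 lower, near the shares over all genes. A fit of only the 6 samples gave 18 higher and 9 lower, with the share higher above that fit's 20.2% over all genes. Wnt10a, a ligand of epidermis and follicle, was at 49.3, 53.0 and 38.0 CPM in healed skin and 22.3, 13.1 and 15.0 CPM in normal skin (log2 fold change 1.47 ± 0.24, adjusted p = 0.0054) and held. The ligand Wnt4 was at 67.3, 69.2 and 63.8 CPM in healed skin and 35.3, 26.3 and 28.6 CPM in normal skin (log2 fold change 1.15 ± 0.30, adjusted p = 0.022). Wnt4 was called without acellular replicate 3 and normal replicate 1 but in no other fit that left out 1 sample (adjusted p up to 0.078). Wnt2, a mesenchymal ligand, was at 0.913, 1.12 and 1.40 CPM in healed skin and 2.81, 7.90 and 7.45 CPM in normal skin (log2 fold change -2.39 ± 0.71, adjusted p = 0.034). Wnt2 was called without normal replicate 1 but in no other fit that left out 1 sample (adjusted p up to 0.12). The secreted antagonist Sfrp2 was at 6.17, 15.2 and 8.83 CPM in healed skin and 22.1, 45.7 and 45.8 CPM in normal skin (log2 fold change -1.91 ± 0.59, adjusted p = 0.039). Sfrp2 was called without acellular replicate 2 and normal replicate 1 but in no other fit that left out 1 sample (adjusted p up to 0.14). Axin2, a general target of the pathway, was not called at 65.8, 63.1 and 65.0 CPM in healed skin and 48.5, 45.5 and 45.2 CPM in normal skin (log2 fold change 0.48 ± 0.21, adjusted p = 0.12). Lef1, a nuclear effector of hair matrix cells, was at 13.1, 7.36 and 25.9 CPM in healed skin and 7.52, 4.29 and 4.96 CPM in normal skin (log2 fold change 1.47 ± 0.95, adjusted p = 0.27). Wnt genes higher numbered 3 to 5 with 1 sample left out, fewest without acellular replicate 1, normal replicate 2 and normal replicate 3. Wnt genes lower numbered 0 to 4 with 1 sample left out, fewest without acellular replicate 1.

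Of 43 TGF-beta and BMP genes, 5 were higher and 5 lower, also near the shares over all genes. A fit of only the 6 samples gave 9 higher and 13 lower, against 20.2% and 21.8% of all genes in that fit. Bmp7 was at 86.0, 72.0 and 74.1 CPM in healed skin and 30.7, 38.7 and 33.9 CPM in normal skin (log2 fold change 1.17 ± 0.26, adjusted p = 0.014). Bmp7 was not called without acellular replicate 1 (adjusted p = 0.056) or normal replicate 3 (adjusted p = 0.053). Fst, the activin and BMP antagonist follistatin, was at 143, 107 and 111 CPM in healed skin and 58.8, 50.8 and 42.8 CPM in normal skin (log2 fold change 1.25 ± 0.26, adjusted p = 0.01). Fst was not called without normal replicate 3 (adjusted p = 0.053). Chrdl1, a BMP antagonist of stromal cells, was lower at 8.96, 6.96 and 5.14 CPM in healed skin and 29.5, 79.5 and 43.8 CPM in normal skin (log2 fold change -2.86 ± 0.82, adjusted p = 0.031). Chrdl1 was called without normal replicate 1 but in no other fit that left out 1 sample (adjusted p up to 0.094). Acvrl1, the endothelial type I receptor ALK1, was also lower at 15.6, 28.2 and 15.8 CPM in healed skin and 63.8, 77.6 and 73.6 CPM in normal skin (log2 fold change -1.85 ± 0.36, adjusted p = 0.009), which held. Tgfb1 itself was not called at 34.5, 41.8 and 27.8 CPM in healed skin and 28.6, 32.7 and 25.7 CPM in normal skin (log2 fold change 0.26 ± 0.21, adjusted p = 0.37). Of 19 Notch genes, 6 were higher and 2 lower, 42.1% in all against 20.3% over all genes. The ligands Jag2 and Dll1 of epidermis were higher (Jag2 0.69 ± 0.17, Dll1 0.85 ± 0.22). Jag2 was not called without acellular replicate 1 (adjusted p = 0.077) or normal replicate 2 (adjusted p = 0.077) or normal replicate 3 (adjusted p = 0.083). Dll1 was called without acellular replicate 2 and acellular replicate 3 but in no other fit that left out 1 sample (adjusted p up to 0.093). The feedback gene Nrarp was at 146, 108 and 85.6 CPM in healed skin and 42.2, 41.6 and 54.5 CPM in normal skin (log2 fold change 1.30 ± 0.29, adjusted p = 0.013). Nrarp was not called without acellular replicate 1 (adjusted p = 0.058) or normal replicate 2 (adjusted p = 0.053). Dll4, the ligand of sprouting endothelium, was lower at 4.74, 11.5 and 6.66 CPM in healed skin and 17.7, 18.9 and 20.7 CPM in normal skin (log2 fold change -1.32 ± 0.37, adjusted p = 0.028). Dll4 was called without acellular replicate 2 but in no other fit that left out 1 sample (adjusted p up to 0.11). TGF-beta and BMP genes higher numbered 0 to 4 with 1 sample left out, fewest without normal replicate 3. TGF-beta and BMP genes lower numbered 1 to 2 with 1 sample left out, fewest without acellular replicate 1, acellular replicate 2, acellular replicate 3, normal replicate 2 and normal replicate 3. Notch genes higher numbered 0 to 4 with 1 sample left out, fewest without acellular replicate 1 and normal replicate 2. The number of Notch genes lower was 0, 3 and 0 without acellular replicates 1, 2 and 3, and 0, 0 and 0 without normal replicates 1, 2 and 3.

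Homeobox genes that mark position along the body moved both ways. Of 29 Hox genes tested, 5 were higher and 5 lower. The genes lower came from groups 5 to 10, and Hoxc10 (chromosome 15, 102966796 to 102971898) had the lowest fold change of all genes that met the naming rule. It was at 0.171, 0 and 0.175 CPM in healed skin and 6.60, 4.08 and 7.31 CPM in normal skin (log2 fold change -5.62 ± 1.09, adjusted p = 0.0089), at most 3 counts in any healed library, and it held. Hoxa9 was at 3.77, 4.89 and 6.55 CPM in healed skin and 32.3, 22.7 and 34.5 CPM in normal skin (log2 fold change -2.56 ± 0.53, adjusted p = 0.01). Hoxd9 was at 10.2, 16.3 and 10.9 CPM in healed skin and 32.9, 29.2 and 34.6 CPM in normal skin (log2 fold change -1.37 ± 0.32, adjusted p = 0.015). Hoxd9 was not called without acellular replicate 1 (adjusted p = 0.068) or normal replicate 3 (adjusted p = 0.055). Hoxa10 was lower in mean but not called at 0.742, 2.25 and 3.80 CPM in healed skin and 12.2, 5.62 and 15.0 CPM in normal skin (log2 fold change -2.27 ± 0.99, adjusted p = 0.11). The genes higher were Hoxb2, at 24.7, 19.5 and 18.5 CPM in healed skin and 8.57, 8.70 and 8.85 CPM in normal skin (log2 fold change 1.26 ± 0.25, adjusted p = 0.0091), Hoxb3, Hoxb4 and Hoxb6 (Hoxb3 0.70 ± 0.19, Hoxb4 1.02 ± 0.21, Hoxb6 1.12 ± 0.25), and Hoxc13 of the hair matrix. Hoxb3 was called without acellular replicate 2 but in no other fit that left out 1 sample (adjusted p up to 0.083). Hoxb6 was not called without acellular replicate 1 (adjusted p = 0.056) or normal replicate 2 (adjusted p = 0.051). The site of the normal skin along the back relative to the wound is not given, so site and healing cannot be told apart for these genes. The number of Hox genes higher was 2, 5 and 3 without acellular replicates 1, 2 and 3, and 3, 2 and 3 without normal replicates 1, 2 and 3. The number lower was 2, 3 and 4 without acellular replicates 1, 2 and 3, and 4, 4 and 2 without normal replicates 1, 2 and 3.

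**Figure D4:**
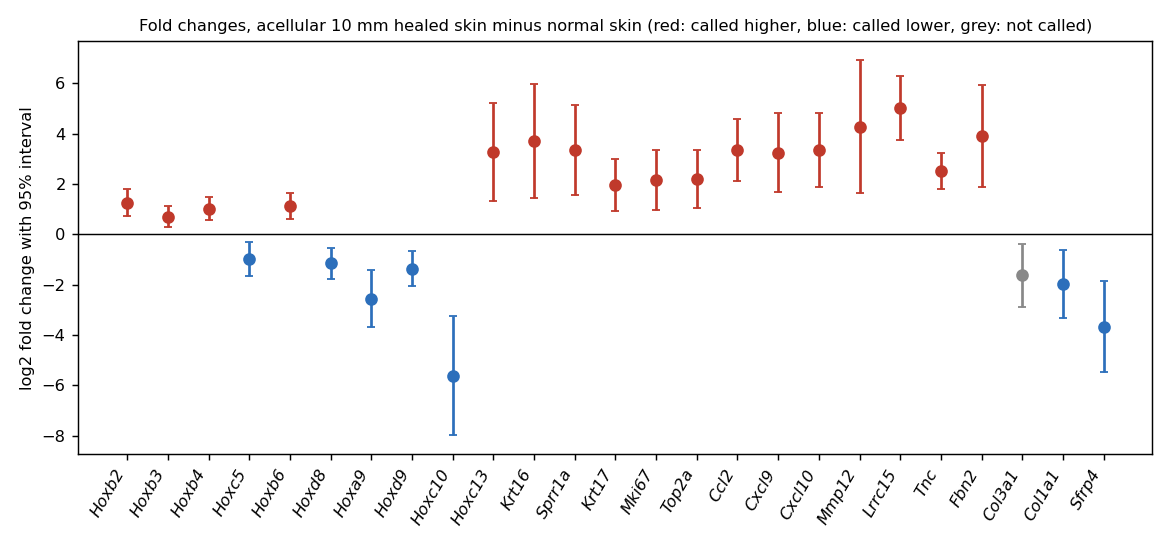
Log2 fold changes of acellular 10 mm minus normal skin with 95% intervals for Hox genes in paralogue order, then activated keratinocyte, cell cycle, chemokine and matrix genes, with genes called higher in red, lower in blue and not called in grey. Group 2 to 4 Hoxb genes lie above 0 and Hoxa9, Hoxd9 and Hoxc10 below, and the widest intervals belong to genes that vary between healed samples, such as Mmp12 and Krt16.

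Clock genes separated the healed samples from each other as well as from normal skin. Of 19 circadian genes, 2 were higher and 5 lower. Arntl (BMAL1), the activator of the clock, was at 24.5, 52.7 and 56.6 CPM in healed skin and 10.8, 10.3 and 12.9 CPM in normal skin (log2 fold change 1.98 ± 0.31, adjusted p = 0.005), and held. Cry2, a repressor, was at 42.4, 24.5 and 26.1 CPM in healed skin and 89.7, 80.4 and 78.5 CPM in normal skin (log2 fold change -1.42 ± 0.20, adjusted p = 0.0043), and held. Per3, a repressor whose level cycles strongly, was at 69.6, 14.9 and 16.6 CPM in healed skin and 105, 123 and 98.8 CPM in normal skin (log2 fold change -1.69 ± 0.52, adjusted p = 0.038). Per3 was called without acellular replicate 1 but in no other fit that left out 1 sample (adjusted p up to 0.11). Dbp, a direct output gene, was at 83.0, 9.55 and 10.2 CPM in healed skin and 124, 139.9 and 90.1 CPM in normal skin (log2 fold change -1.79 ± 0.72, adjusted p = 0.092). For Per3, Dbp, Tef and Nr1d2 healed replicate 1 lay near the normal samples and replicates 2 and 3 lay together well below. The number of clock genes lower was 7, 1 and 1 without acellular replicates 1, 2 and 3, and 1, 2 and 1 without normal replicates 1, 2 and 3. The count higher was 2, 1 and 1 without acellular replicates 1, 2 and 3, and 1 without any 1 normal replicate. The hour at which each skin was taken is not given in the sources used here, and its part in these values was not tested.

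Of 22 immediate early genes, which respond within minutes to a stimulus, 11 were higher in healed skin and 1 was lower. Fos was at 248, 186 and 775 CPM in healed skin and 24.3, 21.2 and 12.01 CPM in normal skin (log2 fold change 4.39 ± 0.71, adjusted p = 0.0053). Fosb was at 31.6, 43.2 and 307 CPM in healed skin and 4.22, 2.81 and 4.16 CPM in normal skin (log2 fold change 5.09 ± 0.95, adjusted p = 0.0075). Egr1 was at 316, 331 and 832 CPM in healed skin and 94.3, 86.1 and 54.7 CPM in normal skin (log2 fold change 2.65 ± 0.41, adjusted p = 0.005), all transcription factors induced by growth factors or handling of tissue, and all 3 held. Healed replicate 3 was the highest for the 3 genes. Atf3, a stress-induced factor, was raised in replicates 2 and 3 but not in replicate 1, at 18.4, 58.9 and 255 CPM in healed skin and 25.4, 23.1 and 20.0 CPM in normal skin (log2 fold change 2.28 ± 0.73, adjusted p = 0.046). Atf3 was called without acellular replicate 1 but in no other fit that left out 1 sample (adjusted p up to 0.32). The gene lower was Klf2, a factor that endothelium expresses under flow, at 20.1, 38.4 and 29.1 CPM in healed skin and 93.2, 68.7 and 72.0 CPM in normal skin (log2 fold change -1.42 ± 0.39, adjusted p = 0.027). Klf2 was called without acellular replicate 2 but in no other fit that left out 1 sample (adjusted p up to 0.11). Immediate early genes higher numbered 7 to 9 with 1 sample left out, fewest without normal replicate 2 and normal replicate 3. Of 18 heat shock genes, 3 were higher and none lower, against 7 higher by DESeq2, and 6 higher and 6 lower in a fit of only the 6 samples. Heat shock genes higher numbered 1 to 4 with 1 sample left out, fewest without acellular replicate 1, normal replicate 2 and normal replicate 3. Dnajb1, a co-chaperone, was at 203, 112 and 107 CPM in healed skin and 60.1, 58.1 and 53.9 CPM in normal skin (log2 fold change 1.29 ± 0.21, adjusted p = 0.0054) and held. Hspa1b, which shares reads with its near-identical copy Hspa1a, was at 744, 241 and 214 CPM in healed skin and 183, 132 and 104 CPM in normal skin (log2 fold change 1.51 ± 0.44, adjusted p = 0.032), with healed replicate 1 the highest. Hspa1b was not called without acellular replicate 1 (adjusted p = 0.18) or normal replicate 2 (adjusted p = 0.097) or normal replicate 3 (adjusted p = 0.12). The time from excision to freezing is not given in the sources used here.

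**Figure D5:**
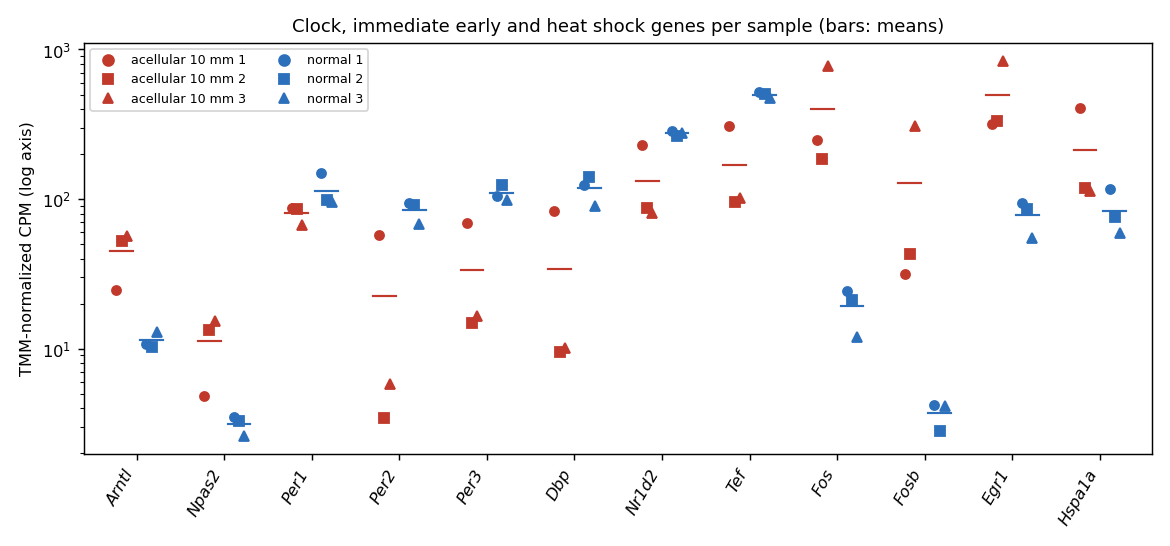
TMM-normalized CPM on a log axis for clock, immediate early and heat shock genes, with acellular 10 mm samples in red, normal samples in blue and bars for means. Healed replicate 1 (circles) sits near normal skin for Per2, Per3, Dbp, Nr1d2 and Tef, and replicate 3 (triangles) is highest for Fos, Fosb and Egr1.

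Nerve, pigment and blood genes gave few calls in the edgeR fit of all samples. Of 20 Schwann cell and nerve genes, 2 were higher and none lower, against 6 lower by DESeq2 and 10 lower in a fit of only the 6 samples, with a median of -0.92. Sox10, which defines the lineage with melanocytes, overlapped at 10.8, 15.3 and 11.4 CPM in healed skin and 17.1, 12.4 and 16.2 CPM in normal skin (log2 fold change -0.28 ± 0.32, adjusted p = 0.53). The 2 genes higher, Erbb3 (0.86 ± 0.16) and Egr2 (2.14 ± 0.27), are also expressed by keratinocytes or follicle cells. Of 12 melanocyte genes, 7 had every healed sample above every normal one, against 29.1% of all genes, and 1 was called. DESeq2 called 2 higher (against 14.6%). A fit of only the 6 samples called 7 higher of the 10 it tested (against 20.2%). The 1 gene called in the fit of all samples was Mitf, the master regulator, at 56.5, 50.04 and 53.9 CPM in healed skin and 35.6, 38.3 and 36.3 CPM in normal skin (log2 fold change 0.54 ± 0.17, adjusted p = 0.045). Mitf was called in none of the 6 fits that left out 1 sample (adjusted p from 0.07 to 0.14). Dct, a melanin enzyme, was at 81.2, 86.3 and 112 CPM in healed skin and 24.6, 41.2 and 19.3 CPM in normal skin (log2 fold change 1.71 ± 0.88, adjusted p = 0.17). Of 4 erythrocyte genes tested, edgeR called none in the fit of all samples, with 3 at an unadjusted p below 0.05, whereas DESeq2 called 3 lower and a fit of only the 6 samples 3. Hba-a1, an alpha globin whose reads are shared with its copy Hba-a2, was at 70.8, 85.6 and 52.7 CPM in healed skin and 183, 427 and 615 CPM in normal skin (log2 fold change -2.55 ± 0.88, adjusted p = 0.057).

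The study names some secreted factors as examples that were higher in skin given dense stem cell beads than in its other groups. The comparison here, of acellular with normal skin, is a different one. Of Cxcl9, Cxcl10, Il12b, Ccl5 and Vcam1, the first 3 were higher in acellular healed skin than in normal skin, as given above. Ccl5, a chemokine for T cells, was at 2.34, 5.95 and 2.28 CPM in healed skin and 2.74, 1.81 and 1.68 CPM in normal skin (log2 fold change 0.76 ± 0.72, adjusted p = 0.45). Vcam1, a vascular adhesion molecule, was at 6.11, 11.8 and 7.60 CPM in healed skin and 12.7, 12.7 and 11.0 CPM in normal skin (log2 fold change -0.51 ± 0.43, adjusted p = 0.39). Among 34 clustered protocadherins 1 was called, Pcdhga1 (-1.24 ± 0.36). Pcdhga1 was called in none of the 6 fits that left out 1 sample (adjusted p from 0.053 to 0.1). Among 48 cytosolic ribosomal protein genes edgeR called none, with a median of 0.31, no call by DESeq2, 0 at an unadjusted p below 0.05, and a largest log2 fold change of 0.50.

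Outside these lists, the naming rule gave further genes with the smallest p-values. Among genes higher, Mab21l3 was at 17.6, 17.02 and 14.6 CPM in healed skin and 3.79, 3.62 and 2.15 CPM in normal skin (log2 fold change 2.36 ± 0.24, adjusted p = 0.0014). Cxadr, the coxsackievirus and adenovirus receptor of epithelial junctions, was at 499.8, 389 and 386 CPM in healed skin and 125, 103 and 105 CPM in normal skin (log2 fold change 1.93 ± 0.24, adjusted p = 0.0023). Gsdma3, a gasdermin of skin epithelium, was at 45.3, 57.7 and 33.2 CPM in healed skin and 3.51, 2.95 and 2.15 CPM in normal skin (log2 fold change 3.98 ± 0.46, adjusted p = 0.0019). Cyp1b1, a cytochrome P450, was at 108, 97.3 and 80.3 CPM in healed skin and 35.3, 37.6 and 28.7 CPM in normal skin (log2 fold change 1.49 ± 0.18, adjusted p = 0.0019). Among genes lower, Spns2, the exporter of sphingosine 1-phosphate, was at 37.7, 31.4 and 34.4 CPM in healed skin and 122, 86.4 and 101 CPM in normal skin (log2 fold change -1.58 ± 0.16, adjusted p = 0.0014). Sorbs3, the adhesion adaptor vinexin, was at 26.4, 33.2 and 28.2 CPM in healed skin and 92.0, 74.0 and 86.6 CPM in normal skin (log2 fold change -1.52 ± 0.21, adjusted p = 0.0032). Gfpt2, which feeds glucose into hexosamines, was at 4.28, 5.95 and 5.96 CPM in healed skin and 24.0, 49.5 and 41.1 CPM in normal skin (log2 fold change -2.82 ± 0.38, adjusted p = 0.0032). Stra6, the retinol-binding protein receptor, which the rule gave for its fold change and not its p-value, was at 14.6, 35.7 and 31.0 CPM in healed skin and 0.773, 1.27 and 0.134 CPM in normal skin (log2 fold change 5.21 ± 1.14, adjusted p = 0.013). Stra6 was not called without normal replicate 3 (adjusted p = 0.053). None of these genes overlapped between the groups.

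The other healed groups place the acellular 10 mm samples. Skin healed from a 15 mm wound with the same cell-free beads (3 samples) differed from it in no gene by edgeR, with 2684 genes at an unadjusted p below 0.05 and 1015 called by DESeq2. Leaving out acellular 15 mm replicate 3 gave 526 calls. Skin healed from a 10 mm wound with beads that carried mesenchymal stem cells at high density (HDB, 3 samples) also gave 0 calls, with 543 genes at an unadjusted p below 0.05 and 17 called by DESeq2. A count of 0 does not show that the groups are alike. Pecam1 was at 47.1 ± 21.1 CPM (SD, n = 3), against 69.4 ± 27.8 CPM in the acellular 15 mm group, 73.8 ± 21.2 CPM in the HDB 10 mm group and 189 ± 8.38 CPM in normal skin. Krt71 was at 84.4 ± 84.1 CPM, 1056 ± 1654 CPM, 3.80 ± 2.09 CPM and 0.0915 ± 0.0424 CPM in the same order, so the healed groups differed widely in mean. The SD was about as large as the mean in the acellular 10 mm group and larger in the acellular 15 mm group. Hoxc10 was at 0.116 ± 0.1001 CPM, 0.0945 ± 0.164 CPM, 0.0562 ± 0.00275 CPM and 5.9999 ± 1.70 CPM, near 0 in these healed groups. Fos was at 403 ± 324 CPM, 42.9 ± 25.7 CPM, 28.5 ± 4.33 CPM and 19.2 ± 6.39 CPM, so the level stood highest in the acellular 10 mm samples. The comparisons of each healed group with normal skin share the same 3 normal samples, and their calls are therefore not independent.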

How the data were processed

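RNA of 15 mouse skin samples was sequenced, and 6 of them are described here. The authors deposited 1 table of estimated counts per gene, not normalized. Their processing notes name HISAT2 2.0.4, Bowtie2 2.2.5, RSEM 1.2.12 and the build GRCm38.p6, without saying which step each served. Reads shared between gene copies are split by such estimation, so members of multicopy families are uncertain. Estimated counts were rounded to whole numbers. Tests were run with edgeR 4.0.16 (R 4.3.3), TMM scaling, the filterByExpr filter (15369 of 18929 genes kept) and 1 fit of 5 group means (10 residual degrees of freedom), with Benjamini-Hochberg adjustment at 0.05. SEs were derived from each log2 fold change and its F value. Depth was 15840551 to 17597931 counts per sample, and CPM were computed from TMM-scaled totals.

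The members and the 46 gene lists were chosen with earlier results of these data known. Named genes are, for each list, its defining members, the 4 with the highest mean level and up to 4 called per direction, plus the 15 highest and 15 lowest fold changes among called genes without overlap and at 5 CPM or more, the 10 smallest p-values per direction, and Mki67, Pecam1, Cd68 and Cd3e. The text names 9 further genes, chosen after their values were seen. A gene absent from a group (0 counts) was set to a floor of 3 counts per library for its fold bound. Positions and promoters are RefSeq's on GRCm38.p6. Genes not under their symbol in the table were not analysed here. Some genes that the rule names are not reported here.

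Alternatives were DESeq2 1.42.0, RLE scaling, no filter, a mean of at least 50 counts, the 2 groups alone, TMM factors without muscle and hair genes, the replicate number as a block, each sample left out, a minimum log2 fold change of 1 in size and, added after seeing the data, removal of each sample's transcript length trend. On simulated counts with 200 genes changed by a log2 fold of 2, 89% were recovered of 15285 genes tested with 4 false calls. At a log2 fold of 1, 13.5% were recovered of 15273 with 1 false call. The simulation took each gene's spread from a trend over mean level, alike in all groups, and changed only genes above 1 CPM. Its shares therefore do not apply to genes that vary more between samples than that trend, such as muscle and hair genes here.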

Additional observations from a re-analysis of the deposited data

How the results depend on the processing

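The number of genes called between acellular 10 mm and normal skin was 3125. It was 5058 with DESeq2, 6196 with the 2 groups alone and 1667 (663 higher, 1004 lower) with a log2 fold change of 1 or more in size. RLE scaling gave 3146, the TMM variant 3114, no filter 2709, the stricter filter 3066 and removal of the length trend 3217, with 1756 higher and 1461 lower against 1501 and 1624. RLE gave 1345 and 1801. Leaving out 1 sample gave 800 to 1853. All 3125 genes kept their direction in every fit that tested them. The means of long and short transcripts differed between samples by -0.151, -0.121 and 0.036 (log2) in healed and 0.022, 0.053 and 0.068 in normal skin, and the cause was not tested. Against acellular 15 mm the count was 0, with 1015 by DESeq2 and 0 to 526 without 1 sample. Against HDB 10 mm it was 0, with 17 by DESeq2 and 0 without any 1 sample.

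Same-number samples of the groups deviated together with correlations of 0.003, 0.151 and 0.062. Samples of different number were not compared in this way, and the labels do not say what the numbers mark. Whether the replicate numbers pair the samples is therefore not known. With the replicate block 2466 genes were called.

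Leaving out 1 sample changed the direction of Cd207 (-0.217 to 0.349), Cd68 (-1.330 to 0.309), Eln (-0.692 to 0.435), Fasn (-0.501 to 0.387), Kit (-0.054 to 0.305), Lyz2 (-1.714 to 0.407), Ptch1 (-0.379 to 0.546), S100a8 (-0.356 to 0.866), Shh (-0.465 to 4.218) and Sox2 (-0.158 to 0.306), given as the lowest and highest log2 fold change. Lyz2 was also 0.0059 with the length trend removed. None of these genes was called in the fit of all samples. Shh was below 1 CPM in 5 of the 6 samples, where differences may not be detectable at this depth.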
